A study of Mus musculus with 7 samples.

Results

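Overexpression of the microRNA miR-218 from a lentivirus was compared with an empty control virus in primary mouse motor neuron cultures, in 3 overexpression (OE) and 2 control libraries of the 7 in the series. All genes of the raw-count table were taken, 23366 in number, of which 12134 had enough counts to be tested. The cells of every group came from the spinal cords of C57BL/6 mouse embryos, labelled E13.5, although the protocol also mentions a rat embryonic stage. Motor neurons were enriched over a density gradient and transduced in culture with pUltra viruses. Both groups received CNTF and GDNF at 1 ng/ml, trophic factors for motor neurons, and both received 200 µM fluorodeoxyuridine, a drug that blocks the division of glia, after 5 days in culture. The series also holds 2 libraries with a miR-218 knockdown (KD) virus, which helped to estimate the spread between libraries. The design text speaks of duplicates, whereas the sample titles give 3 OE libraries, and all 3 were used. Whether the libraries of a group were separate cultures is not stated in the labels. P-values here therefore measure only how far these samples spread, and that spread may be technical.

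A microRNA guides an Argonaute complex to messenger RNAs that pair with its seed, the bases near its 5′ end, and such pairing in a 3′ UTR usually lowers the level of the transcript. miR-218 is made from precursors in introns of Slit2 and Slit3, genes of secreted axon guidance ligands, and it is abundant in motor neurons. Its reported targets include transporters, channels and guidance receptors.

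The mature sequences are shown first because the results below are ordered by the match of each transcript to them. They were taken from RefSeq (GRCm38.p6), with the seed, bases 2 to 8, in capitals. miR-218-5p is the arm made by both precursors, and the 3p arms differ between Mir218-1 and Mir218-2.
miR-218-5p: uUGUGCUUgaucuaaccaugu
miR-218-1-3p: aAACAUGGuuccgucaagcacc
miR-218-2-3p: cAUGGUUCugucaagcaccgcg

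A transcript can pair with the miR-218-5p seed through AGCACA (6mer), AGCACAA (7mer-A1), AAGCACA (7mer-m8) or AAGCACAA (8mer), of which the longer forms contain the shorter ones. Each gene was classed by the best match on the sense strand of its longest annotated 3′ UTR. Among genes with a mean of at least 30 CPM (counts scaled to a common library total), 7 of those that fell most with an 8mer site are shown here by 1 site each. Beside them stand a second site of Kif21b and the site of Cetn2, the fall of greatest size at that level with a 7mer-m8 as its best match. Each line gives 22 bases of the transcript's strand from mm9, with the bases that match in capitals.
Kif21b, chr1:138072960-138072981, plus strand: atccttcttgtcggAAGCACAA
Kif21b, chr1:138073706-138073727, plus strand: caaagggcagcttaAAGCACAA
Itm2c, chr1:87804796-87804817, plus strand: gggatgagtctgccAAGCACAA
Plcxd2, chr16:45961466-45961487, minus strand: gacataatacacatAAGCACAA
2010107G23Rik, chr10:61571351-61571372, minus strand: gggcttccgctaaaAAGCACAA
2510009E07Rik, chr16:21649742-21649763, minus strand: taaggggaaaaaaaAAGCACAA
Plgrkt, chr19:29423329-29423350, minus strand: atatcgtgtctcaaAAGCACAA
Yeats4, chr10:116652508-116652529, minus strand: cattccacgacgttAAGCACAA
Cetn2, chrX:70159511-70159532, minus strand: tctttttctactgcAAGCACAt

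The libraries held 2879382 to 3360686 counts in OE and 2099714 and 1591812 in control. Log2 expression correlated across genes at 0.969 to 0.971 between OE libraries and at 0.95 between the controls, and control 1 correlated at 0.956 with OE 1. In the leading principal component of the 5 libraries, which carried 44.4% of the variance, the OE libraries lay at 18.1, 23.5 and 25.2 and the controls at -17.6 and -49.3. The next component (25.9%) parted the controls (42 and -23.8) and held the OE libraries between -9.3 and -1, so the controls differed from each other more than the OE libraries did. The label of motor neurons was set against 14 identity genes, of which Mnx1 and Lhx4 had 0 counts in all 5 libraries and 7 were tested. Chat, which makes acetylcholine, had 2 to 11 counts per OE library and 5 and 2 in the control libraries. Summed over the 14 genes the level was 118, 126 and 145 CPM in OE, against 127 and 112 CPM in control. Summed CPM of 17 general neuron markers reached 12500, 11620 and 11780 in OE and 13220 and 13380 in control.

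Reads over the Mir218-1 precursor checked the labels of the overexpression libraries. Mir218-1 (chr5:48615181-48615290, mm9, plus strand) had 342, 234 and 289 CPM in OE, against 52.3 and 51.9 CPM in control. Each OE library lay above both controls, and OE 2 was the lowest of the 3 (log2 fold change 2.47, SE 0.16, edgeR adjusted p = 3.32e-12). The host genes gave no such difference: Slit2 had 61.7, 63.9 and 81.8 CPM in OE and 50.3 and 65.3 CPM in control, with overlapping groups (log2 0.27, edgeR adjusted p = 0.466). Slit3 also overlapped between the groups (log2 0.31, edgeR adjusted p = 0.701). Counts over a precursor do not measure mature miR-218.

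Overexpression came with lower levels of a smaller, better expressed set of genes and higher levels of a larger set that held many weakly expressed ones. A gene was called by edgeR's quasi-likelihood test where its adjusted p was under 0.05 and its fold over 1.5. By this rule 4.91% of the tested genes were called, 3.65% higher (443 genes) and 1.26% lower (153 genes). These shares are the background for every count of a gene group below. The OE libraries all lay above both controls in 442 of the 443 rises and below both in 152 of the 153 falls. Separate groups, where given for called genes in the text or a figure, therefore go with being called and are not added evidence. The gene lists were chosen with earlier results of these data known, so their counts are descriptions and not independent tests. The median mean level was 28.7 CPM for the rises and 55.8 CPM for the falls, against 27.9 CPM for all tested genes. Among the 5853 genes with a mean of at least 30 CPM, 217 rose and 118 fell. Rises were also steeper: 285 rises and 39 falls exceeded 2-fold, and 62 rises and 3 falls exceeded 4-fold. Of the rises, 43 had under 10 control counts in all and 20 had a control library at 0 counts. The median log2 fold change of all tested genes was 0.0015. Both counts depended on single libraries, with 294 rises and 103 falls without OE 3 and 364 rises and 104 falls without OE 2. They depended on the controls as well: without either control, which leaves 1 control library, fewer of these genes kept their call than without any OE library. In bulk libraries, fewer cells of a type and less RNA per cell cannot be told apart.

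**Figure D1:**
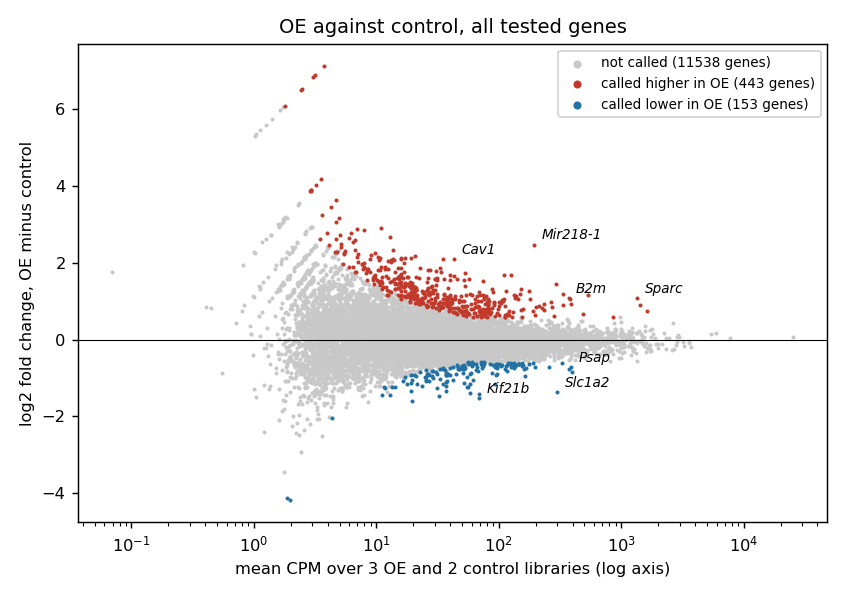
Log2 fold change of OE minus control (y axis) against mean CPM over the 5 libraries (x axis, log scale), with each of the 12134 tested genes as 1 point, 443 called higher in red and 153 called lower in blue. Called falls lie mostly at well-expressed genes such as Kif21b, Slc1a2 and Psap, while called rises reach down to low CPM, where the fitted fold changes of greatest size come from groups at or near 0 counts.

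The falls of greatest size with an 8mer site came from genes of different functions, and their OE libraries lay below both controls in each case. Kif21b, a kinesin motor of neurons, had 37.7, 38.8 and 41.7 CPM in OE, against 111 and 117 CPM in control. The 3 OE libraries were within a few CPM of each other and far below both controls (log2 -1.53, SE 0.16, edgeR adjusted p = 8.79e-08). Both sites printed for it lie in a 3′ UTR of 4042 bases, at bases 2441 and 3187. Itm2c, an integral membrane protein, had 35.6, 45.1 and 41.7 CPM in OE and 95.8 and 124 CPM in control. The controls of Itm2c were the more variable group, and the groups stayed apart (log2 -1.43, SE 0.18, edgeR adjusted p = 1.69e-06). Yeats4, a reader of acetylated histones in chromatin-remodelling complexes, had 66.6, 63.6 and 58.0 CPM in OE and 137 and 142 CPM in control. Its 2 groups were tight and well separated (log2 -1.15, SE 0.14, edgeR adjusted p = 1.11e-06).

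Plcxd2, which carries a phospholipase C X domain, had 23.1, 22.4 and 24.1 CPM in OE and 72.3 and 44.9 CPM in control. The spread of Plcxd2 was in the controls, with control 1 well above control 2 (log2 -1.35, SE 0.22, edgeR adjusted p = 0.000103). Plgrkt, a plasminogen receptor, carries its site 38 bases into a 3′ UTR of only 285 bases and had 20.7, 27.6 and 23.1 CPM in OE and 64.5 and 40.4 CPM in control. It was lower in each OE library (log2 -1.16, SE 0.23, edgeR adjusted p = 0.000955), but the call was lost without control 1. The uncharacterized genes 2010107G23Rik (log2 -1.27, SE 0.23) and 2510009E07Rik (log2 -1.20, SE 0.23) fell as well, the second with 2 sites of the 8mer kind. Apart from Plgrkt, the genes of these paragraphs were called in each of 12 alternative settings.

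Shorter matches accompanied falls as well. Slc1a2, the main glutamate transporter of astrocytes, has 6 sites of the 7mer-m8 kind in a 3′ UTR of 9250 bases and no 8mer. It had 209, 166 and 177 CPM in OE, against 464 and 487 CPM in control, with the groups far apart (log2 -1.37, SE 0.10, edgeR adjusted p = 4.64e-11). Cetn2, a centrin of centrioles and of DNA repair, has its site 25 bases into the 3′ UTR. It had 24.3, 42.6 and 39.2 CPM in OE and 78.2 and 109 CPM in control, where OE 1 was the lowest (log2 -1.40, SE 0.21, edgeR adjusted p = 3.8e-05). Among the most abundant falls, the G protein subunit Gng3 (8mer) had 263, 327 and 290.4 CPM in OE and 459 and 534 CPM in control (log2 -0.75, SE 0.10). Psap, the precursor of the lysosomal saposins (7mer-m8), had 289, 317 and 318 CPM in OE and 468 and 552 CPM in control (log2 -0.73, SE 0.09). Nbea, a scaffold of vesicle trafficking (7mer-A1), had 309, 297 and 292 CPM in OE and 500.5 and 582 CPM in control (log2 -0.85, SE 0.09). These 3 genes were lower in every OE library than in either control.

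Some of the strongest falls had no such match. Reln, a secreted glycoprotein that guides neuronal layering, had no 6mer and showed 45.6, 30.4 and 32.1 CPM in OE, against 97.3 and 73.7 CPM in control (log2 -1.25, SE 0.20, edgeR adjusted p = 6.58e-05). Nars2, a mitochondrial tRNA synthetase, had a 6mer alone (log2 -1.24, SE 0.21). In both genes the highest OE library was OE 1, and it stayed below the lower control.

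**Figure D2:**
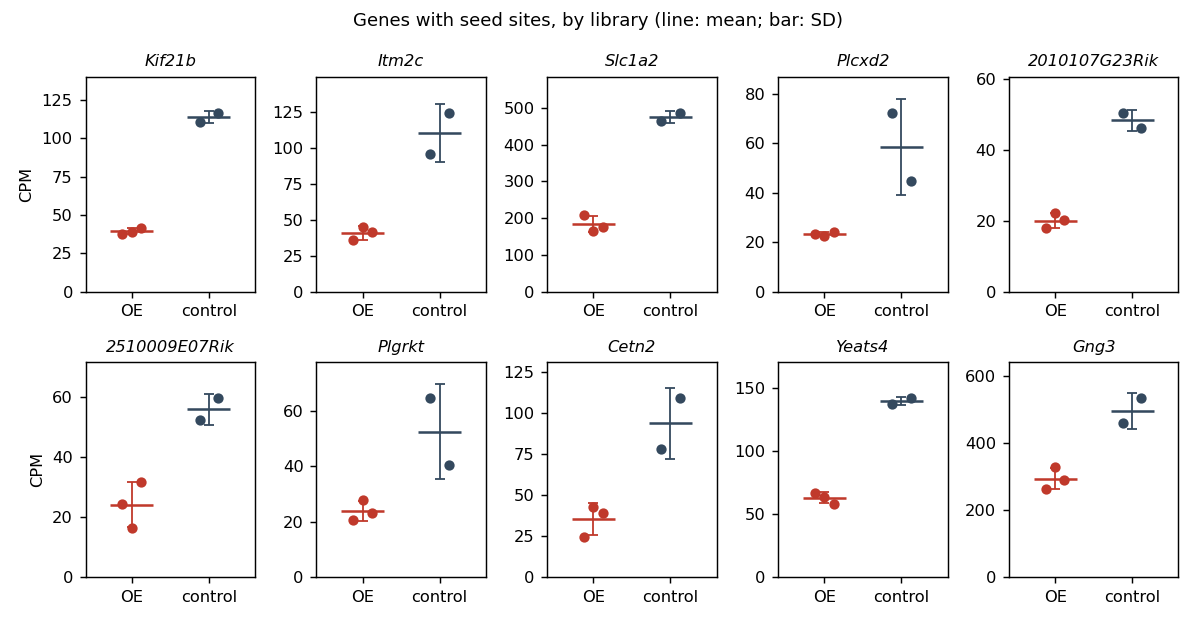
CPM in each OE library (red, left) and each control library (dark blue, right) for 10 genes with an 8mer or 7mer-m8 site that were called lower in OE, with the mean as a line and the SD as a bar. In each panel the 3 OE points lie below both control points, as for Kif21b with 37.7 to 41.7 CPM in OE and 111 and 117 CPM in control.

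Among genes with a 3′ UTR the size of the difference followed the class of the match. A 3′ UTR was found for 11579 of the tested genes (95.4%). The median log2 fold change was -0.17 for the 545 genes with an 8mer and -0.08 for the 1319 with a 7mer-m8. It was -0.06 for the 677 genes with a 7mer-A1, 0.02 for the 2077 with a 6mer and 0.03 for the 6961 with none. The 555 tested genes with no annotated 3′ UTR, which could not be classed, had a median of -0.07. Genes with an 8mer were lower than those without a match in each OE library taken against the control mean, by -0.17 in OE 1, -0.23 in OE 2 and -0.22 in OE 3 (difference of median log2 values). Control 1 minus control 2 gave 0.03 for the same difference. These medians are descriptions across genes, which are not independent replicates, and no test was attached to them.

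Calls followed the same order. Of the 8mer genes 37 fell and 9 rose, so 6.79% were called lower, against 0.603% of genes with no match (42 of 6961). Among the 7mer-m8 genes 37 fell and 34 rose, and among 6mer genes 16 fell and 66 rose. Read from the falls, 48.4% of the 153 had an 8mer or a 7mer-m8 and 61.5% of the 39 falls over 2-fold did, while 15.4% of all tested genes and 9.71% of the rises did. The 8mer genes that rose include Egfr, the epidermal growth factor receptor (log2 1.36, SE 0.32; call lost without control 1), and the collagen gene Col1a1 (log2 0.88, SE 0.22; lost without OE 3 and without control 1). Of the falls, 42 had no 6mer in the 3′ UTR examined.

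More sites of the 7mer-m8 or 8mer kind went with lower values and with longer 3′ UTRs. Median lengths were 2316, 3291 and 4984 bases for 1, 2 and 3 or more sites, and numbers of sites were not compared at like length. Genes with 1 site of the 7mer-m8 or 8mer kind had a median log2 fold change of -0.09 (1544 genes, 2.98% lower), those with 2 had -0.15 (268 genes, 7.09% lower), and those with 3 or more had -0.20 (52 genes, 17.3% lower). The 35 genes with at least 2 sites of the 8mer kind had a median of -0.27, with 9 falls and 0 rises. Genes with 8mer sites have longer 3′ UTRs (median 2559 bases, against 847 without a match), so the classes were also set side by side within bins of length. The 8mer genes had the lower median log2 value in each bin. It was -0.33 (15 genes) against 0.06 under 500 bases, and -0.15 (40 genes) against 0.02 from 500 to 1000 bases. From 1000 to 2000 bases it was -0.27 (129 genes) against 0.02, and from 2000 to 4000 bases -0.14 (232 genes) against 0.00. From 4000 bases upward it was -0.17 (129 genes) against -0.02. The bin under 500 bases is the least certain. Its 8mer genes differed from all genes without a match by -0.16, -0.27 and -0.095 in OE 1, OE 2 and OE 3. Control 1 minus control 2 gave 0.14 for the same difference.

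Matches in the coding sequence stood with smaller differences, and matches to the 3p arms with values near 0. Genes with an 8mer in the coding sequence and no 3′ UTR match differed from genes without a match by -0.06 (331 genes), and those with a coding 7mer-m8 by -0.05 (1070 genes). For the 3p arms, genes with a 7mer-m8 match for miR-218-1-3p (CCATGTT) differed by -0.003 (669 genes) and those for miR-218-2-3p (GAACCAT) by 0.009 (405 genes).

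**Figure D3:**
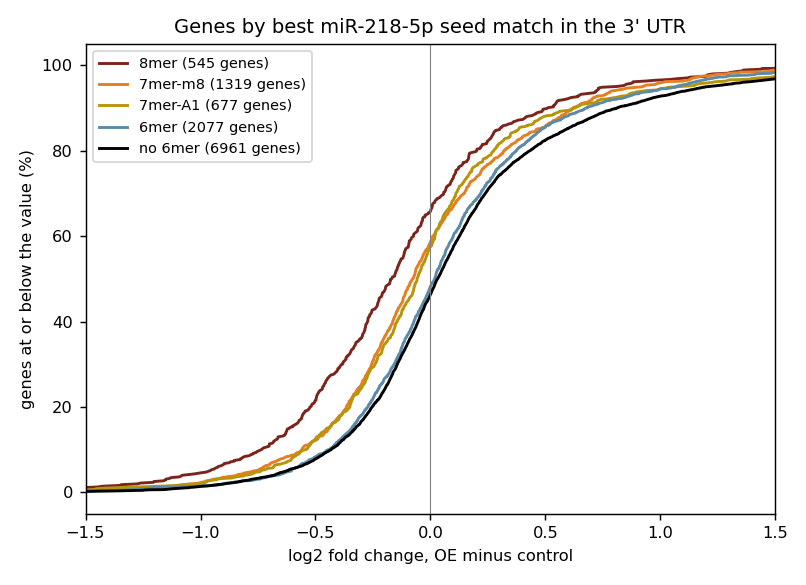
Cumulative share of genes (y axis, %) at or below each log2 fold change of OE minus control (x axis), with 1 curve for each class of best miR-218-5p match in the 3′ UTR. The 8mer curve lies furthest to the left, with 65.7% of its 545 genes below 0, the 7mer curves lie between, and the 6mer curve runs close to that of the 6961 genes with none, of which 46.4% lie below 0.

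A list of 22 reported miR-218 targets, written with earlier results of these data known, had 20 tested members, 9 with an 8mer and 8 with a 7mer-m8 as best match. Of these 7 fell and 1 rose, with a median log2 fold change of -0.28 (all tested genes 0.0015), and each of the 7 falls carries such a site. Besides Slc1a2 the falls included Vopp1, a vesicular membrane protein, at 33.1, 38.8 and 32.4 CPM in OE and 67.9 and 85.2 CPM in control (log2 -1.13, SE 0.19). Robo2, a receptor for Slit ligands, had 121, 89.4 and 99.98 CPM in OE and 163 and 156 CPM in control (log2 -0.62, SE 0.13; lost without OE 2). The potassium channel Kcnh1, the Polycomb gene Bmi1 and the epimerase Glce fell too, with calls lost in 3, 8 and 8 of 12 alternative settings. The count of falls was 4 without OE 3. An 8mer did not always go with a fall: Lasp1, an actin-binding protein, gave log2 -0.11, Robo1, another Slit receptor, 0.17, and the kinase Ikbkb -0.10 (edgeR adjusted p = 0.627, 0.72 and 0.88). Gja1, the main connexin of astrocytes, has a 7mer-m8 and rose, with 104, 91.9 and 118 CPM in OE and 55.7 and 48.7 CPM in control (log2 1.00, SE 0.17).

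Lists of amino acid transporters, axonal motors, potassium channels and synaptic genes gave a few falls each and 0 rises. Of 30 tested glutamate and GABA receptor genes 1 rose and 1 fell. Of 20 tested amino acid transporters 3 fell and 0 rose, among them Slc1a2 and the glutamine carrier Slc38a1, and the same count was had without any 1 library. Slc38a1 had 160, 179.9 and 136 CPM in OE, against 247 and 274 CPM in control (log2 -0.72, SE 0.11). Slc1a3, a relative of Slc1a2 and the other glutamate transporter of astrocytes, was not called (log2 0.33, edgeR adjusted p = 0.192). Of 25 axonal kinesin and dynein genes 2 fell, Kif21b and Kif3c, the second with 132, 117 and 125 CPM in OE and 200.4 and 229 CPM in control (log2 -0.78, SE 0.12). The remaining 23 did not pass, and 20 of the 25 lay below 0, with a median log2 fold change of -0.18. Kif21a, the closest relative of Kif21b, gave log2 0.18 (edgeR adjusted p = 0.506).

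Among 23 potassium channel genes 3 fell and 0 rose (1 fall without OE 3). Lrrc55, an auxiliary subunit of large-conductance potassium channels, had 14.9, 23.4 and 18.8 CPM in OE and 47.9 and 57.7 CPM in control (log2 -1.47, SE 0.25, edgeR adjusted p = 0.000168). Pex5l, which binds HCN pacemaker channels, had 9.73, 10.8 and 11.1 CPM in OE and 22.5 and 42.9 CPM in control (log2 -1.61, SE 0.33; lost without control 2). The channel gene Hcn3 was not called (log2 -0.60, edgeR adjusted p = 0.208). Of 31 genes of vesicle release 1 fell, Unc13a, a priming factor (log2 -0.70, SE 0.13; lost without control 2), and the list's median was -0.19. Of 25 postsynaptic scaffold genes 2 fell, with a median of -0.28. Dlg2, the scaffold PSD-93, had 235, 198 and 188 CPM in OE and 319.7 and 356 CPM in control (log2 -0.70, SE 0.11), and Lrrc4 gave log2 -0.63 (lost without OE 2 and without control 1).

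Cholesterol synthesis genes lay a little lower in OE, mostly short of the fold threshold. Of 24 tested members 1 was called lower, Srebf2, the transcription factor of the pathway (lost in 6 of 12 alternative settings), and 23 had a log2 fold change below 0, with a median of -0.36. Cyp51, a demethylase of the pathway, had 381, 332 and 295 CPM in OE, against 431 and 493 CPM in control (log2 -0.46, SE 0.10, edgeR adjusted p = 0.00335, under the 1.5-fold threshold). Insig1, a sterol sensor that has a 7mer-m8, had 196, 175 and 163 CPM in OE and 257 and 268 CPM in control (log2 -0.56, SE 0.11). For both genes every OE library lay below both controls.

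The 4 rises of highest mean CPM were Fabp7, Vim, Sparc and Wbp5. Sparc, a secreted matrix glycoprotein, had 1620, 1699 and 1828 CPM in OE, against 877 and 744 CPM in control. The 2 groups were far apart (log2 1.08, SE 0.08, edgeR adjusted p = 1.01e-10). Vim, the filament vimentin, had 1601, 1723 and 1859 CPM in OE and 1012 and 853 CPM in control (log2 0.89, SE 0.09). Wbp5, which encodes a WW domain-binding protein, had 999, 933 and 1020 CPM in OE and 745 and 551 CPM in control (log2 0.60, SE 0.09). Its control 2 was well below control 1, and the call was lost without OE 3, without control 2 and with the replicate number as a block. Less abundant was Igfbp2, which binds insulin-like growth factors, with 594, 767 and 691 CPM in OE and 316 and 297 CPM in control (log2 1.16, SE 0.10, edgeR adjusted p = 1.35e-09). The lowest OE library of each lay above the higher control.

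After Mir218-1, the steepest rises among well-expressed genes were Pm20d1 and Cav1. Pm20d1, an enzyme that makes N-acyl amino acids, had 46.8, 46.1 and 59.6 CPM in OE and 15.6 and 7.05 CPM in control (log2 2.11, SE 0.28, edgeR adjusted p = 5.04e-06). Cav1, the caveolar coat protein caveolin, had 54.4, 59.4 and 72.2 CPM in OE and 17.1 and 11.5 CPM in control (log2 2.09, SE 0.25, edgeR adjusted p = 7.28e-07). Both genes were lowest in control 2 and separated the groups fully. The others were Eda2r (log2 1.85), the transcription factor Ets1 (1.79), the reductase Ptgr1 (1.75), the collagen Col4a5 (1.73), Col8a1 (1.69), the thioredoxin inhibitor Txnip (1.69), the thyroid hormone-binding Crym (1.67), Tmbim1 (1.65) and Cnn1 (1.61). Mir218-1 has no annotated 3′ UTR and could not be classed, and none of the others named here has an 8mer or a 7mer-m8.

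Matrix genes made up one of the largest groups of rises. Of 37 tested collagens and matrix genes 15 rose and 0 fell, with a median log2 fold change of 0.75 (10 rises without control 2). Col8a1, a short-chain collagen, had 147, 177 and 199 CPM in OE, against 63.5 and 42.9 CPM in control (log2 1.69, SE 0.17, edgeR adjusted p = 2.42e-08). Col5a2, a fibrillar collagen, had 99.5, 132 and 118 CPM in OE and 53.8 and 38.4 CPM in control (log2 1.32, SE 0.18). Lama5, a laminin chain, had 17.9, 33.9 and 38.9 CPM in OE and 7.82 and 5.13 CPM in control (log2 2.18, SE 0.38). In Lama5 the OE libraries spread widely, with OE 1 at the lower end, and the groups did not overlap. Thbs2 (log2 1.06) and Tnc (0.88), secreted proteins that alter adhesion, rose as well. Of 17 integrin and adhesion genes 4 rose, with 1 rise without control 2.

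Genes of actin contraction rose in the same libraries. Of 27 tested members 10 rose and 0 fell, with a median log2 fold change of 0.51. Acta2, smooth muscle actin, had 184, 248 and 261 CPM in OE, against 97.8 and 96.1 CPM in control (log2 1.25, SE 0.13, edgeR adjusted p = 7.96e-08). Cald1, the actin-binding caldesmon, had 200.4, 183 and 209 CPM in OE and 71.4 and 89.7 CPM in control (log2 1.31, SE 0.13). Cnn1, a calponin, had 35.0, 47.9 and 45.4 CPM in OE and 11.2 and 17.3 CPM in control (log2 1.61, SE 0.25). The controls of Acta2 were nearly equal, and in all 3 genes each OE library was higher than either control. Of 19 Hippo pathway and CCN family genes 7 rose and 0 fell (median 0.61). Wisp1, a secreted CCN protein, had 54.4, 61.8 and 70.4 CPM in OE and 20.5 and 21.1 CPM in control (log2 1.58, SE 0.22), and the coactivator Wwtr1, known as TAZ, had 37.1, 45.4 and 38.9 CPM in OE and 17.6 and 17.9 CPM in control (log2 1.18, SE 0.25).

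Of all the lists, cell division genes had the largest count of rises, while the cultures had been given fluorodeoxyuridine. Of 41 tested mitosis and cytokinesis genes 20 rose and 0 fell, with a median log2 fold change of 1.12. The count was 11 without control 1, likewise 11 without control 2, and 12 by limma-voom. Cdk1, the kinase that starts mitosis, had 51.1, 83.9 and 85.2 CPM in OE, against 38.1 and 38.4 CPM in control (log2 0.94, SE 0.21, edgeR adjusted p = 0.00361). OE 1 was the lowest of the OE libraries and lay closest to the controls. Top2a, the topoisomerase of dividing cells, had 54.7, 84.5 and 66.0 CPM in OE and 26.9 and 35.2 CPM in control (log2 1.15, SE 0.21). Anln, a scaffold of the cytokinetic ring, had 20.1, 19.9 and 20.1 CPM in OE and 3.91 and 5.77 CPM in control (log2 2.07, SE 0.37), on 8 and 9 counts in the controls.

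Genes of the phases before mitosis rose in part. Of 38 DNA replication genes 8 rose and 0 fell (median log2 0.40), with 2 rises without OE 3, 2 without control 1, 2 without control 2 and 1 by limma-voom. Mcm4, a subunit of the replicative helicase, had 76.3, 82.1 and 97.5 CPM in OE and 40.6 and 36.5 CPM in control (log2 1.14, SE 0.18), the only member called in each of the 12 alternative settings. Of 25 nucleotide synthesis genes 3 rose, among them both subunits of ribonucleotide reductase, Rrm1 (log2 0.97, SE 0.16) and Rrm2 (1.02, SE 0.16). Rrm2 had 118, 131 and 149.7 CPM in OE and 77.7 and 51.2 CPM in control. Of 27 cyclins, inhibitors and E2F genes 4 rose and 1 fell. Ccnd1, the cyclin of G1 entry, had 182, 181 and 166 CPM in OE and 79.2 and 80.7 CPM in control, with the controls nearly equal (log2 1.14, SE 0.13, edgeR adjusted p = 6.75e-07). The fall was Cdkn1c, an inhibitor of cyclin-dependent kinases (log2 -0.79; lost without control 1).

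Targets of p53 rose beside the division genes. Of 31 tested members 14 rose and 0 fell, with a median log2 fold change of 0.72. Eda2r, a receptor of the TNF family, had 49.0, 44.7 and 45.7 CPM in OE, against 11.2 and 14.7 CPM in control (log2 1.85, SE 0.26, edgeR adjusted p = 9.12e-06). Perp, a membrane effector of apoptosis, had 142, 177 and 193 CPM in OE and 81.6 and 69.2 CPM in control (log2 1.17, SE 0.15). Mdm2, the ligase that degrades p53, had 83.9, 100.3 and 90.1 CPM in OE and 54.2 and 53.8 CPM in control (log2 0.76, SE 0.17). These 3 genes were higher in every OE library, and Eda2r was the most widely separated. The death receptor Tnfrsf10b (log2 1.35), the BH3-only gene Pmaip1 (1.08), the antiproliferative Btg2 (1.14), Ccng1 (0.91), Rps27l (0.85) and Zmat3 (0.72) rose too.

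**Figure D4:**
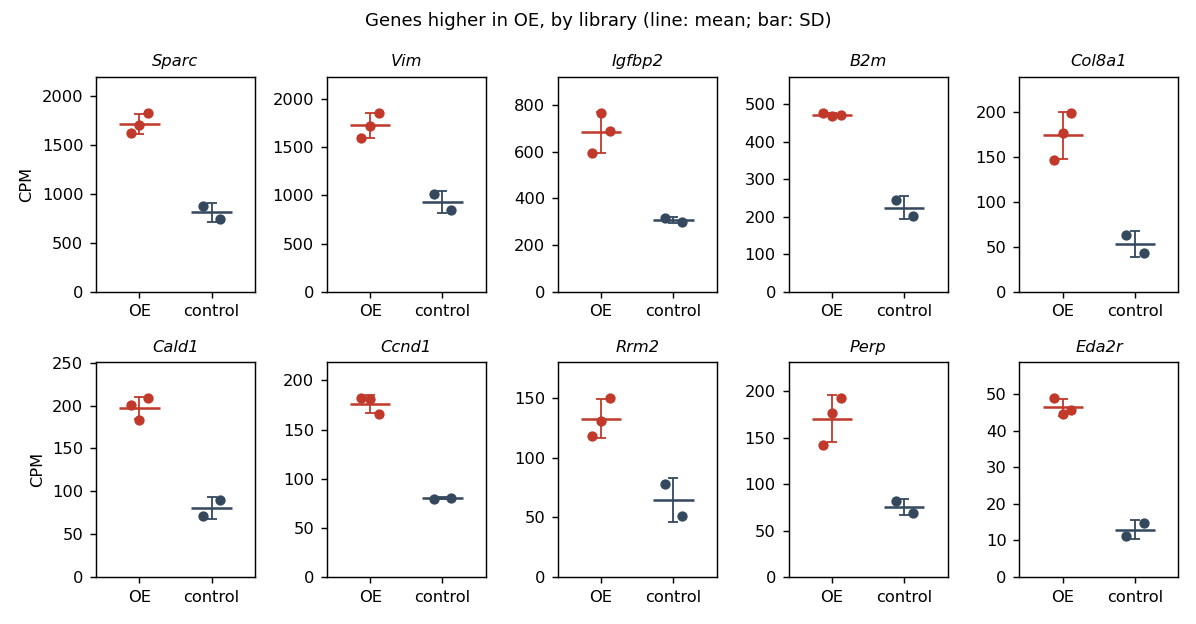
CPM in each OE library (red, left) and each control library (dark blue, right) for 10 genes called higher in OE from different gene groups, with the mean as a line and the SD as a bar. The OE points lie above both control points in each panel, as for B2m at 469 to 477 CPM in OE and 245 and 202 CPM in control.

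Immune and inflammatory genes rose in part. Of 13 MHC class I and complement genes 4 rose and 0 fell (median log2 0.99). B2m, the light chain of MHC class I, had 477, 469 and 471 CPM in OE, against 245 and 202 CPM in control, and its OE libraries were nearly equal (log2 1.07, SE 0.10, edgeR adjusted p = 7.12e-09). H2-K1, a class I heavy chain, had 229.6, 318 and 322 CPM in OE and 162 and 144 CPM in control (log2 0.92, SE 0.13). Cd59a, which blocks complement lysis, had 48.7, 57.6 and 58.0 CPM in OE and 24.4 and 11.5 CPM in control (log2 1.56, SE 0.25). Heavy chain genes are near-identical copies in part, so reads that map to several of them were not counted.

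Of 29 chemokine and cytokine genes 6 rose and 1 fell (median log2 0.56). Cklf, a chemokine-like factor, had 18.5, 21.0 and 19.1 CPM in OE and 2.93 and 3.20 CPM in control (log2 2.66, SE 0.42), and the macrophage growth factor Csf1 had 82.4, 108 and 129 CPM in OE and 59.1 and 61.5 CPM in control (log2 0.82, SE 0.18). Of 23 NF-kB and acute phase genes 4 rose (2 without control 2). Vcam1, an adhesion molecule for leukocytes, had 207, 234 and 236 CPM in OE and 96.8 and 119.8 CPM in control (log2 1.07, SE 0.13), and the pentraxin Ptx3 gave log2 2.34 (SE 0.41). Of 16 interferon response genes 2 rose, and none was called without OE 3 or without control 2. The antioxidant regulator Nfe2l2, known as NRF2, had 41.1, 37.7 and 28.7 CPM in OE and 13.2 and 10.3 CPM in control (log2 1.59, SE 0.28), as 1 of 2 rises among 29 heat shock and NRF2 genes (1 without control 1).

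Sema3c, a secreted semaphorin, had 139.6, 120.5 and 152 CPM in OE, against 87.0 and 62.8 CPM in control (log2 0.86, SE 0.16). It was the only call among 29 semaphorins, plexins and neuropilins. Epha4, a repulsive receptor of motor axons, had 81.5, 70.9 and 95.3 CPM in OE and 42.5 and 48.0 CPM in control (log2 0.87, SE 0.18). Its groups did not overlap, and among 18 ephrins and Eph receptors 2 rose (1 without control 2) and 1 fell. Of 18 Notch pathway genes 4 rose, but the count was 0 without OE 3 and 1 without either control. Of 28 TGF-beta and BMP genes 3 rose, with 0 without control 2.

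Markers of astrocytes and radial glia and, in part, of fibroblasts moved with these groups, and their part in the rises was not tested. In the list of astrocytes and radial glia, 7 of 15 tested members rose and 1 fell, with a median log2 fold change of 0.75. Their summed level was 4823, 4805 and 5038 CPM in OE, against 3433 and 3045 CPM in control. Fabp7, a fatty acid binding protein of radial glia, had 2011, 1910 and 1911 CPM in OE and 1250 and 1053 CPM in control (log2 0.75, SE 0.08). Nes, the progenitor filament nestin, had 94.9, 101 and 105.5 CPM in OE and 49.4 and 41.0 CPM in control (log2 1.14, SE 0.17). Of the 15 members 13 had a log2 fold change above 0. The 2 below 0 were Slc1a2, which fell, and Aqp4 (log2 -0.24, edgeR adjusted p = 0.678). Among other markers of mature astrocytes, the connexin Gja1 rose (log2 0.995, SE 0.17). Gfap did not pass, at 4.94 to 10.8 CPM in OE and 3.91 and 2.56 CPM in control (log2 1.13, edgeR adjusted p = 0.34).

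Fibroblast and meningeal markers summed to 230, 303 and 313 CPM in OE, against 190 and 170 CPM in control, with 2 of 8 tested members higher, Fn1 and Col1a1, and 1 without OE 2, OE 3 or control 1. All 8 tested members had a log2 fold change above 0, with a median of 0.58. The fibroblast genes Dcn and Lum were low in all libraries. Dcn had 2.13 to 5.86 CPM in OE and 3.91 and 2.56 CPM in control, and Lum was at or under 1.28 CPM. Oligodendrocyte markers summed to 65.1 to 102 CPM in OE and 93.4 and 57.7 CPM in control, and Schwann and neural crest markers to 98.2 to 108 CPM in OE and 119 and 103 CPM in control, with overlapping sums and 0 calls by edgeR or DESeq2 (1 member of each list lower at an unadjusted edgeR p under 0.05). Without OE 3, and with the replicate number as a block, 1 oligodendrocyte marker was called lower. Yet 6 of the 7 tested oligodendrocyte markers had a log2 fold change above 0, with a median of 0.34. The 6 tested Schwann and neural crest markers were split, 3 above 0 and 3 below, with a median of -0.05. Microglia markers summed to 28.3 to 37.4 CPM in OE and 34.7 and 34.0 CPM in control, with Csf1r and Tmem119 at 0 counts in all 5 libraries. Endothelial markers summed to 8.38 to 15.8 CPM in OE and 4.40 and 11.5 CPM in control. Red blood cell markers had 0 counts in both controls and summed to at most 1.4 CPM in OE.

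Of 17 general neuron markers 0 were called by edgeR or by DESeq2, 14 lay below 0, and their median log2 fold change was -0.14. At an unadjusted p under 0.05, edgeR had 1 of them higher and 7 lower. Dcx, doublecortin of young neurons, had 659, 577 and 572 CPM in OE, against 759.5 and 810.5 CPM in control (log2 -0.38, edgeR adjusted p = 0.00305, under the 1.5-fold threshold). Of 7 tested motor neuron markers 1 was called, the GDNF receptor component Ret, higher in OE (log2 1.13), in a call lost in 7 of 12 alternative settings. Isl1, a motor neuron transcription factor, had 0.70 to 3.39 CPM in OE and 5.38 and 4.48 CPM in control, on 2 to 11 counts per library (log2 -1.37, edgeR adjusted p = 0.353). Interneuron markers summed to 837, 698 and 685 CPM in OE and 908 and 859 CPM in control, with 1 of 8 tested members lower, the vesicular glutamate transporter Slc17a6 (log2 -0.60; lost in 4 of 12 alternative settings). The GABA-synthesizing enzyme Gad1 gave log2 0.14 (edgeR adjusted p = 0.542).

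**Figure D5:**
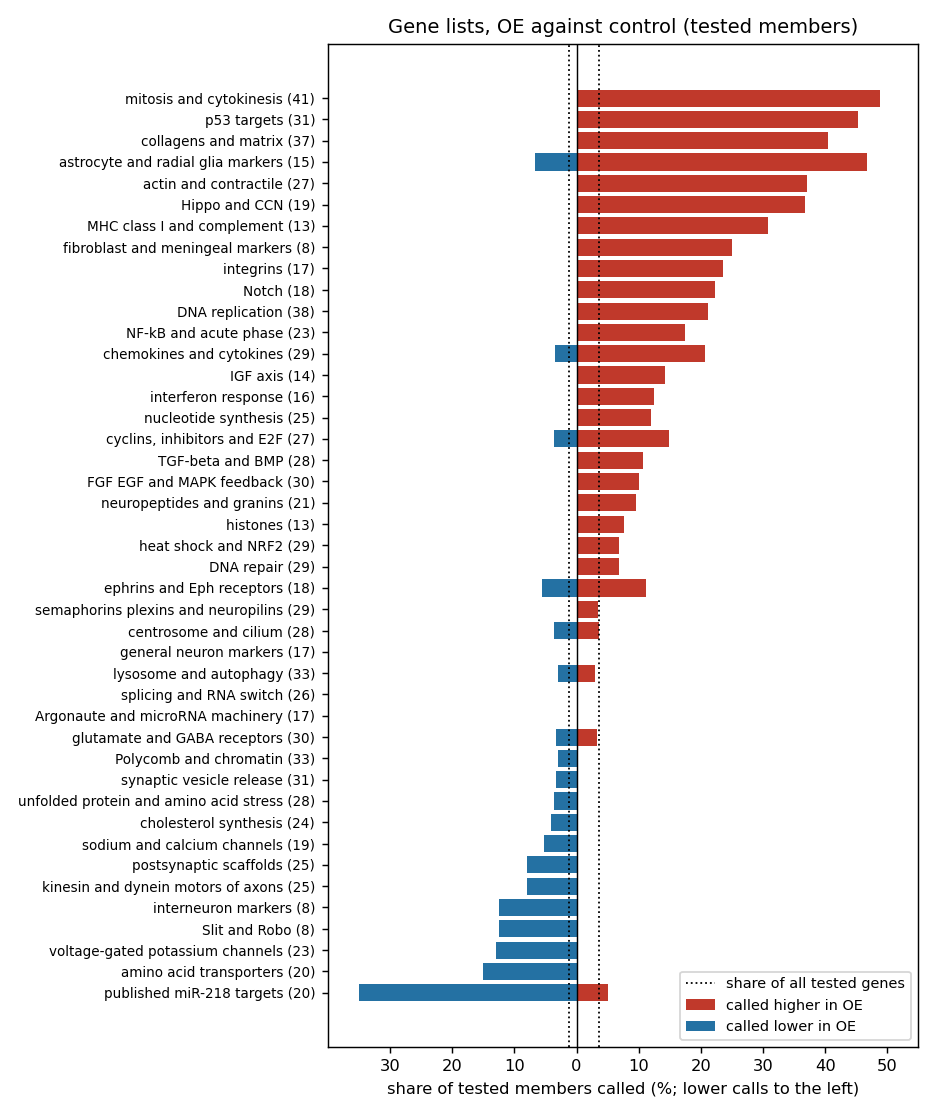
Share of the tested members of each gene list that were called higher (red, to the right) or lower (blue, to the left) in OE, with the number tested in parentheses and the shares over all tested genes, 3.65% higher and 1.26% lower, as dotted lines. The lists of mitosis (48.8%), astrocyte and radial glia markers (46.7%) and p53 targets (45.2%) reach furthest to the right, and that of reported miR-218 targets (35%) furthest to the left.

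The KD libraries, which carry another virus of the same kind, were set beside the 7 falls with an 8mer printed above and the 4 most abundant rises. In OE against KD, 2.93% of the tested genes were called higher and 2.37% lower by the same edgeR thresholds. All 7 of these 8mer genes were lower in OE than in KD. They had been picked for falls in the same OE libraries, so this is not independent of the falls against control. Kif21b had 73.7 and 79.5 CPM in KD, above the OE libraries and below the controls (log2 -0.96, SE 0.16). Itm2c (log2 -1.66), Plgrkt (-1.43), Plcxd2 (-1.35), Yeats4 (-1.17), 2510009E07Rik (-1.02) and 2010107G23Rik (-0.86, lost in 2 alternative settings) gave the others. In KD, 2010107G23Rik (37.5 and 35.2 CPM) and 2510009E07Rik (49.6 and 48.7 CPM) also lay above OE and below both controls. For Itm2c, Plgrkt, Plcxd2 and Yeats4 the KD and control libraries overlapped.

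The abundant rises did not pass between OE and KD. Sparc had 1620, 1699 and 1828 CPM in OE and 1513 and 1810 CPM in KD, with 877 and 744 CPM in control, so the OE and KD libraries overlapped and all lay above both controls (OE against KD log2 0.05, SE 0.08, edgeR adjusted p = 0.812). Vim had 1442 and 1777 CPM in KD and did not pass against OE (log2 0.10, SE 0.08). Fabp7 (log2 0.23, SE 0.08, edgeR adjusted p = 0.0643) and Wbp5 (0.17, SE 0.09, edgeR adjusted p = 0.282) did not pass either. A p above the threshold does not show that the levels were equal.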

How the data were processed

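Single-end sequencing with 50-base reads was followed by mapping to mm9 with TopHat2 and gene counting of unique reads with HTSeq-count, per the labels' protocols. The annotation and the strand setting of this counting were not given in the sources used here; reads of overlapping genes cannot be separated. The deposited raw counts per gene were analysed; 7 further per-sample columns of scaled counts were not used. Members and gene lists were chosen with earlier results of these data known, and the lists were written from general knowledge.

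Counts were fitted in R 4.3.3 with edgeR 4.0.16 (TMM, filterByExpr by group, robust quasi-likelihood F test, 1 fit of all 7 libraries with a mean per group, residual df 4, biological coefficient of variation 12.5%), two-sided, with Benjamini-Hochberg adjustment over all 12134 genes. Calls needed an adjusted p under 0.05 and a fold over 1.5. CPM are TMM-scaled. Alternatives used DESeq2 1.42.0 and limma 3.58.1. The chi-square per gene between libraries of 1 group was 2.95 to 3.51, above counting noise, so no library was counted as a copy. On simulated counts (11877 genes) the fit of OE against control recovered 18%, 64%, 86% and 86% of genes changed 1.5-, 2-, 3- and 4-fold, with 4 unchanged genes called. Each simulated gene had the spread of the fitted trend, and libraries were drawn independently. Differences such as those between the real controls were not simulated, so these rates may not hold for the data. Seed sites were read from GENCODE vM1 transcripts on NCBIM37, the assembly of mm9, and 446 genes were matched through an older symbol.

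Genes named were the 12 falls and 12 rises of largest size and the 8 largest falls with an 8mer, all at a mean of 30 CPM or more, up to 4 called members per list (2 of highest CPM where none was called), all precursors, hosts and reported targets, and the 4 most abundant calls in each direction. Further members of a list were named after their values were seen, as examples or because their call held in every alternative setting. Some genes that the rule names are not reported here.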

Additional observations from a re-analysis of the deposited data

How the results depend on the processing

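The 443 rises became 223 with limma-voom, and ran from 237 (without control 2) to 434 when 1 library was left out. The 153 falls became 100 with counts thinned to the shallowest library and 316 with the adjusted p alone. Without OE 1, OE 2 or OE 3 the falls numbered 148, 104 and 103, of which 115, 95 and 92 were among the 153. Of the rises in these fits, 380, 340 and 287 were among the 443. Fits without 1 control left 1 control library and kept fewer of the 443 and of the 153 than any of these. The causes were not tested. The seed-site difference (8mer or 7mer-m8 minus no 6mer, -0.137) was -0.198 for the 8mer alone and -0.072 for a 6mer or longer, both other sets of genes, and ran from -0.15 (without control 2) to -0.13 with 1 library left out. Under RLE size factors it was -0.138 and the counts were 427 and 153. Replicate numbers were given by the titles. The deviations of same-numbered libraries from their group means correlated at 0.026 and 0.008 over only 2 pairs. With 2 controls their deviations mirror each other, so the pairs are not independent and a pairing could not be decided. With the replicate block 337 genes rose, 127 fell and the site difference was -0.132. Of 126 called genes named by rule, 60 were called in each of 12 alternative settings, 39 were lost in 1 to 3 and 27 in more, and 0 reversed. Of the rises, 43 rest on under 10 control counts.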

Other observations

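Several groups of genes gave few or no calls in OE. Of 17 tested genes of Argonaute and the microRNA machinery 0 were called by edgeR or DESeq2, and 0 had an unadjusted edgeR p under 0.05 (median log2 fold change -0.07; 3.65% of all tested genes were called higher and 1.26% lower). Tnrc6a, a partner of Argonaute, had 271, 238 and 265 CPM in OE, against 275 and 269.7 CPM in control, and Ddx6, a helicase of translational repression, had 719, 699 and 746 CPM in OE and 734 and 785 CPM in control. Of 26 splicing genes 0 were called by edgeR or DESeq2 and 6 were lower at an unadjusted edgeR p under 0.05, with Hnrnpa2b1, an abundant RNA-binding protein, at 1540, 1400 and 1491 CPM in OE and 1518 and 1425 CPM in control. Celf4, a splicing regulator of neurons with a 7mer-m8, was lower in each OE library, with 1013, 906 and 969 CPM in OE and 1228 and 1197 CPM in control, short of the 1.5-fold threshold (log2 -0.33, SE 0.07, edgeR adjusted p = 0.00284). Of 33 lysosome and autophagy genes 1 rose and 1 fell. The fall was Psap, and the rise was the cathepsin Ctsz, whose call was lost in 7 of 12 alternative settings, including each fit without OE 2, OE 3, control 1 or control 2. Of 33 Polycomb and chromatin genes 1 fell, Bmi1, whose call was lost in 8 of 12, including those without OE 1 or OE 3 and those by DESeq2 and limma-voom. Neuropeptide genes gave 2 rises among 21 tested, Calca, which encodes CGRP, at 62.3, 70.2 and 45.1 CPM in OE and 28.4 and 30.1 CPM in control (log2 1.02, SE 0.24; lost in 1 alternative setting), and Adcyap1, which encodes PACAP (log2 0.59, SE 0.14; lost in 2). The count was 1 without OE 1 and 1 without control 2.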
